A study of Mus musculus with 12 samples.

Results

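The genes described here are negative regulators of mitogen-activated protein kinase (MAPK) signalling: 6 dual specificity phosphatase genes (Dusp1, Dusp2, Dusp4, Dusp5, Dusp6 and Dusp10) and 4 genes of the Sprouty and SPRED family (Spry1, Spry2, Spry4 and Spred1). They were listed by name and are 10 of the 18194 genes tested. Every probe set listed with one of these genes was taken, which gave 22 of the 45101 probe sets on the array. Total RNA came from C57BL/6 mouse embryonic fibroblasts (MEFs), a connective tissue culture taken from embryos, and was hybridised to 12 Affymetrix arrays in 6 groups of 2. WT were wild-type MEFs. KO were Stat5-null MEFs, which lack the transcription factor STAT5. S5 were Stat5-null MEFs into which a vector carrying STAT5A had been brought by retrovirus. Each kind of cell was measured with no stimulation (WT, KO, S5) and after growth hormone for 120 minutes (WT_GH, KO_GH, S5_GH). The comparisons ask which transcripts respond to the hormone, and which of the responses differ between cells with and without STAT5.

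Limits of these groups as models come from the labels. The S5 cells carry the deletion of the KO cells plus the vector, and no label names KO cells with an empty vector, the vector's promoter or a vehicle control. Each genotype was its own cell preparation, so genotype and preparation cannot be told apart. The labels call the arrays of a group biological duplicates and do not say what was separate between them, so the p-values measure only the spread between these arrays. In bulk RNA, fewer cells of a type and less RNA per cell cannot be told apart.

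A MAPK cascade relays growth factor, cytokine and stress signals from RAS through RAF and MEK to ERK, and through parallel kinases to JNK and p38. Dual specificity phosphatases switch these kinases off by removing phosphate from both the threonine and the tyrosine of their activation loop. Sprouty and SPRED proteins act higher up, between the receptor and RAF. Many of these genes are themselves transcribed in response to ERK activity, which makes them feedback brakes and common readouts of the pathway. The growth hormone receptor signals through the kinase JAK2 to STAT5 and also activates ERK.

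Values are deposited log2 expression values, for which 1 unit is a doubling. A value below 4 falls in a low mode that holds the dimmest probe sets. Where both arrays of a group are below 4, a fold against it is given as "at least", with that group set to 4. Duplicate arrays correlated with r between 0.990 and 0.996 across 10947 genes, which are not independent replicates, and array medians lay between 2.86 and 3.02. The small number of arrays sets the precision. The array labels were checked on the deleted genes: Stat5a stood at 11.51 and 11.45 on the WT arrays and at 2.34 to 2.47 on KO and S5 arrays. Another Stat5a probe set had signal only in S5 cells (9.86 on the array of S5 replicate 1). It lay at 2.23 to 2.38 on the WT and WT_GH arrays, so these probe sets do not compare the vector with the gene's own level. The fibroblast identity was clear in WT and KO, where the mean of 10 fibroblast markers was 13.76 to 13.88. That mean was 11.95 to 12.43 in S5, where Thy1 lay between 2.20 and 5.09 against 14.07 to 14.39 elsewhere. The median difference of the 10 markers was smaller than that of Thy1. For untreated S5 minus WT it was -0.26, with 5 lower and 1 higher by limma's adjusted p (15.4 and 19.2 percent of all genes). For untreated S5 minus KO it was -0.06, with 4 lower and 0 higher (11.9 and 15.5 percent). WT arrays also carried a macrophage signal. The log2 of the summed level of 14 macrophage and blood markers was 15.22 to 16.25 in WT, 9.67 to 9.94 in KO and 8.46 to 8.74 in S5, and on every array of a genotype 1 marker (Itgam) was in the low mode in WT, 8 in KO and 11 in S5, among them the defining markers Ptprc, Adgre1 and Spi1 in both KO and S5. The part of these differences in the results below was not tested. For Gapdh the 3′ control probe set exceeded the 5′ one, a sign of RNA length, by a log2 value of 1.52 ± 0.08 (SD, n = 4) in S5, 1.02 ± 0.15 in WT and 1.04 ± 0.08 in KO. For Actb the same difference was 3.09 ± 0.05 in S5, 2.88 ± 0.25 in WT and 2.96 ± 0.17 in KO, with overlapping ranges.

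**Figure D1:**
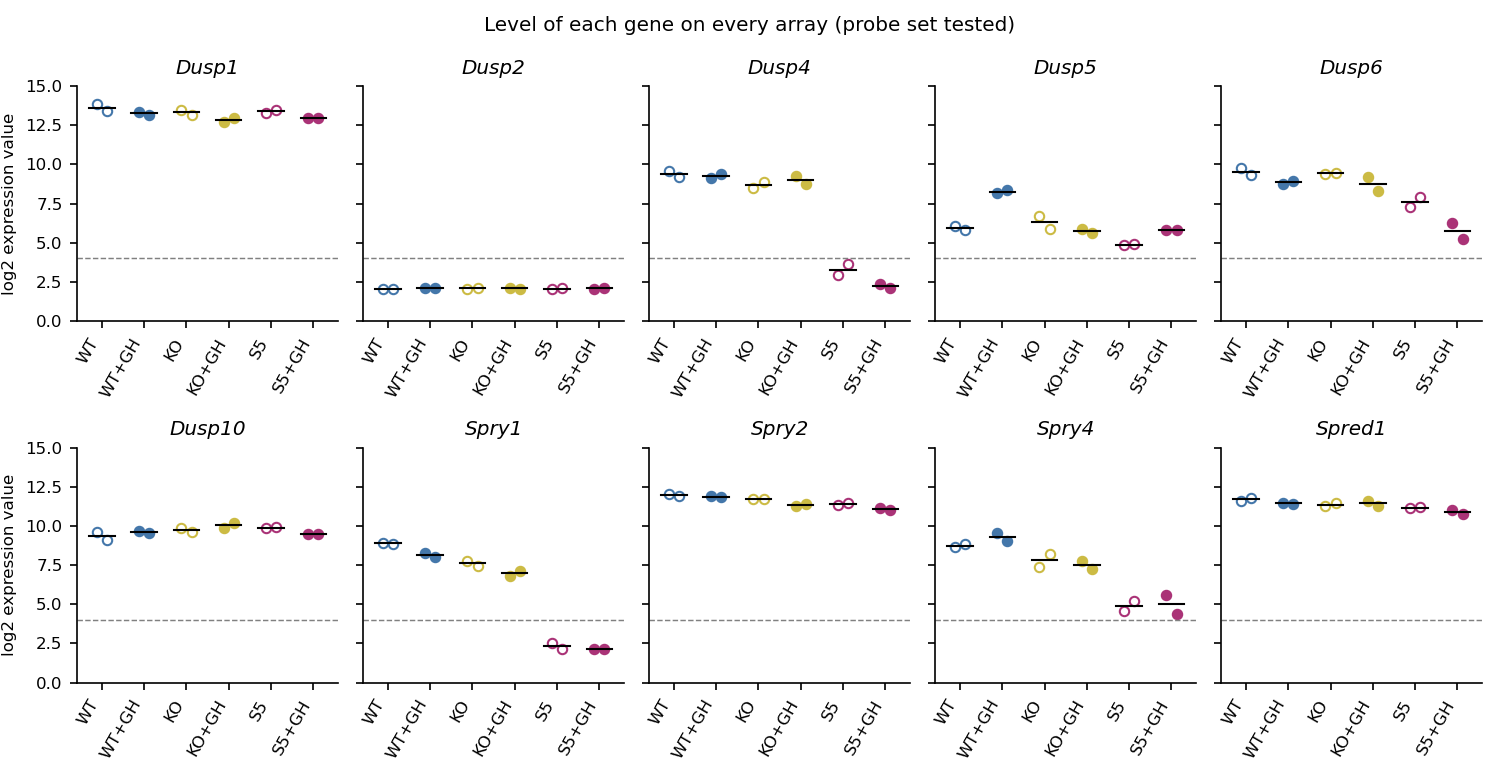
Log2 expression value of each of the 10 genes on every array, on the probe set tested. Open points are untreated and filled points are growth hormone arrays, bars are group means, and the dashed line marks the low mode at 4. Dusp2 sits near 2 on all 12 arrays, Dusp5 stands above 8 only in WT_GH, and Dusp4 and Spry1 are below 4 in both S5 groups.

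Of the 22 probe sets, 12 were above the low mode on every array, 6 were in it on all 12 arrays and 4 crossed it. Of the genes, 9 had a probe set with clear signal in some group. The exception was Dusp2, a nuclear phosphatase known from activated blood cells, whose only probe set lay between 2.06 and 2.13 on all 12 arrays. It had 1 of the 6 silent probe sets, and the other 5 belonged to Spry2 (1 of 2), Spry4 (2 of 4) and Spred1 (2 of 8). There were 6 genes with a single probe set, so for these no second reading exists. For the others the brightest probe set on average was tested.

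Dusp5, which encodes a nuclear phosphatase that acts on ERK, rose with growth hormone in WT MEFs. It stood at 6.06 and 5.82 on the untreated WT arrays and at 8.15 and 8.33 on the treated ones. It stood at 6.69 and 5.90 on the KO arrays, at 5.89 and 5.63 in KO_GH, at 4.83 and 4.94 in S5 and at 5.78 and 5.79 in S5_GH. The 2 WT_GH arrays were thus the highest of all 12, and the S5 arrays without hormone were the lowest. The treated KO arrays lay below the untreated ones, but the nearest 2, at 5.89 and 5.90, almost met. The rise in WT was 4.93-fold (log2 change 2.30, SE 0.24, limma adjusted p = 0.00223, 95 percent interval 1.74 to 2.86) and ranked 134 from the highest among the 18194 genes. In KO the change was -0.53 (SE 0.24, adjusted p = 0.541). In S5 it was 0.91 (SE 0.24, adjusted p = 0.0676), which does not pass, although both S5_GH arrays lay above both S5 arrays. It passed in 5 of the 21 alternative settings, among them array weights (adjusted p = 0.00757) and a model restricted to the arrays compared (0.0398).

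The Dusp5 response of WT exceeded that of KO by 2.83 (SE 0.34, limma adjusted p = 0.0104), and this difference ranked 75 from the highest. Of the 18194 genes, 1.27 percent had a response that differed between WT and KO (0.846 percent higher and 0.423 percent lower in WT), and of the 10 genes 1 did. In a model restricted to the arrays compared the adjusted p of this difference was 0.0708. The response of S5 exceeded that of KO by 1.44 (SE 0.34, adjusted p = 0.134), and it passed without replicate 2 of the untreated KO arrays, which held the lower of the 2 untreated KO values (1.84, adjusted p = 0.0168). The S5 response less that of WT was -1.39 (adjusted p = 0.0914), and this passed in 4 alternatives, which were the model restricted to the arrays compared (0.0167), array weights (0.0234) and leaving out KO replicate 1 or KO replicate 2 (0.0144 each). Each pair of these 3 differences shares the arrays of 1 genotype. None of the 10 genes passed for S5 minus KO (background 1.13 percent of genes, 0.643 percent higher and 0.484 percent lower) or for S5 minus WT (background 2.92 percent, 1.41 percent higher and 1.52 percent lower), where limma's unadjusted p was under 0.05 for 3 and 2 of the 10. That p was under 0.05 for 1775 and 2453 of all 18194 genes in these 2 comparisons.

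The macrophage markers and Dusp5 can be read on the same arrays. The mean of the 14 markers was 8.99 on the array of WT replicate 1, 10.26 on that of WT replicate 2, and 10.44 and 10.46 on the WT_GH arrays. The Dusp5 value of the WT replicate 2 array, 5.82, was the lower of the untreated pair. With the hormone the median change of the 14 markers in WT was 0.535, and 1 passed limma's adjusted threshold, against 6.00 percent of all genes. Over the 21 alternative settings the Dusp5 response of WT minus that of KO lay between 2.44 and 3.23. No setting took the markers into account, so this range does not bear on them. The markers do not show which cells of the culture carried the Dusp5 signal, and this was not tested.

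**Figure D2:**
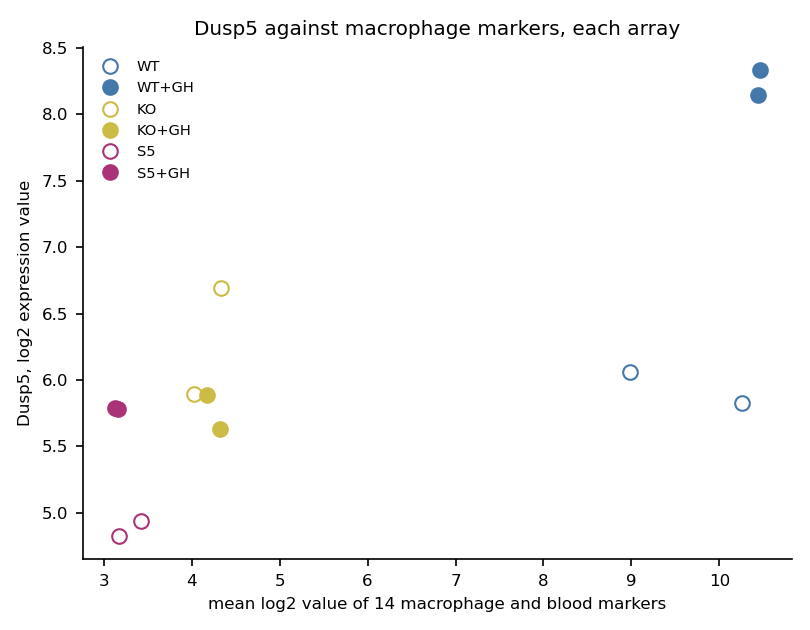
Dusp5 (log2 expression value, vertical) against the average log2 value of the 14 macrophage markers (horizontal), 1 point per array, open untreated and filled with growth hormone. The WT arrays lie to the right, between 8.99 and 10.46, and among them the WT_GH arrays are above 8 and the untreated ones near 6, while S5_GH arrays lie above S5 arrays at marker means between 3.13 and 3.43.

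The stretch of the Dusp5 promoter that held a searched motif is shown because Dusp5 is the gene with the clear hormone response, beside the promoters of Dusp1 and of Cish, a known STAT5 target that rose 8.80-fold in WT (log2 change 3.14, adjusted p = 6.46e-05). Sequences are from RefSeq, build GRCm38.p6, 5′ to 3′ on the gene's strand, with motif matches in capitals. Dusp5 (chr19:53529025-53529104, plus strand, positions -120 to -41 from the annotated start) has 2 adjoining CArG boxes, the site of serum response factor. Dusp1 (chr17:26508573-26508652, minus strand, -180 to -101) has a cAMP response element. Cish (chr9:107296659-107296678, plus strand, the first bases after the start) has 2 STAT sites.
Dusp5: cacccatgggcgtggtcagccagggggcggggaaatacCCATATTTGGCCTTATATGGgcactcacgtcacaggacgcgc
Dusp1: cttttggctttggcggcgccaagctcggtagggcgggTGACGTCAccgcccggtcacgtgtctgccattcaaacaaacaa
Cish: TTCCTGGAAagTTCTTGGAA

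RefSeq promoter windows, from 250 bases before to 50 after the start, were at hand for 8 of the 10 genes, and Dusp4 and Spry4 had none. They were searched on both strands for 5 motifs. The STAT site TTCNNNGAA was in 8.30 percent of all 32851 windows and in 0 of the 8. The cAMP response element TGACGTCA, which CREB and ATF factors bind, was in 1.79 percent and in 1 of the 8, that of Dusp1 at -143 to -136. The CArG box was in 1.63 percent and in 1 of the 8, that of Dusp5 at -82 to -73 and -72 to -63. The AP-1 site TGANTCA, bound by FOS and JUN, was in 7.81 percent and the NF-kB site in 8.46 percent, each in 0 of the 8. The 5 motifs overlap nowhere in the stretches shown. A match is a description of letters in the window and says nothing of binding in these cells.

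Growth hormone in WT MEFs changed 2 of the 10 genes, Dusp5 upward and Spry1 downward, against a background of 6.00 percent of all genes (3.06 percent higher, 2.94 percent lower). The median log2 change of the 10 was -0.13, against -0.04 over all genes. Spry1, a membrane-linked inhibitor of receptor signalling to RAS, stood at 8.93 and 8.87 on the WT arrays and at 8.24 and 8.03 in WT_GH. It stood at 7.77 and 7.45 in KO, at 6.79 and 7.13 in KO_GH, and at 2.52, 2.15, 2.12 and 2.13 on the S5 and S5_GH arrays. Treated arrays were below untreated arrays in WT and in KO, with no overlap, and all S5 arrays were in the low mode, where no change can be read. The fall in WT was 1.71-fold (log2 change -0.77, SE 0.17, limma adjusted p = 0.0434) and the change in KO was -0.65 (SE 0.17, adjusted p = 0.219). The call in WT was lost in 11 of the 21 alternative settings, with adjusted p up to 0.212 (without WT_GH replicate 2), and the difference between the WT and KO responses was -0.12 (adjusted p = 0.9999, interval -0.68 to 0.44).

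In KO MEFs the hormone changed 0 of the 10 genes by limma's adjusted p, and 3 had an unadjusted p under 0.05 (Dusp1, Spry1 and Spry2). In KO 1800 of all 18194 genes had such an unadjusted p. The background was low there, at 0.308 percent of all genes (0.225 percent higher and 0.0824 percent lower). The median change of the 10 was -0.33, against -0.02 over all genes. Spry2, which like Spry1 restrains receptor signalling, had the smallest p of the 10, with 11.72 and 11.74 on the KO arrays and 11.28 and 11.39 in KO_GH (log2 change -0.40, SE 0.08, adjusted p = 0.121).

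In S5 MEFs 1 of the 10 genes passed, against 7.88 percent of all genes (3.63 percent higher and 4.25 percent lower). Limma's unadjusted p was under 0.05 for 6 of the 10, and for 3733 of all 18194 genes. Dusp6, a cytoplasmic phosphatase specific for ERK, stood at 7.26 and 7.89 on the S5 arrays and at 6.27 and 5.25 in S5_GH. It stood at 9.76 and 9.31 in WT, at 8.77 and 8.97 in WT_GH, at 9.40 and 9.48 in KO and at 9.23 and 8.28 in KO_GH. In each genotype both treated arrays were below both untreated ones. The fall in S5 was 3.51-fold (log2 change -1.81, SE 0.42, adjusted p = 0.0464, rank 57 from the lowest), and the changes in WT and KO were -0.66 (adjusted p = 0.443) and -0.68 (adjusted p = 0.775). The S5 call was lost in 13 of the 21 alternative settings, with adjusted p up to 0.238 (without S5 replicate 2), and the differences of the S5 response from that of KO (-1.13, SE 0.60, adjusted p = 0.708) and of WT (-1.15, SE 0.60, adjusted p = 0.521) did not pass.

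**Figure D3:**
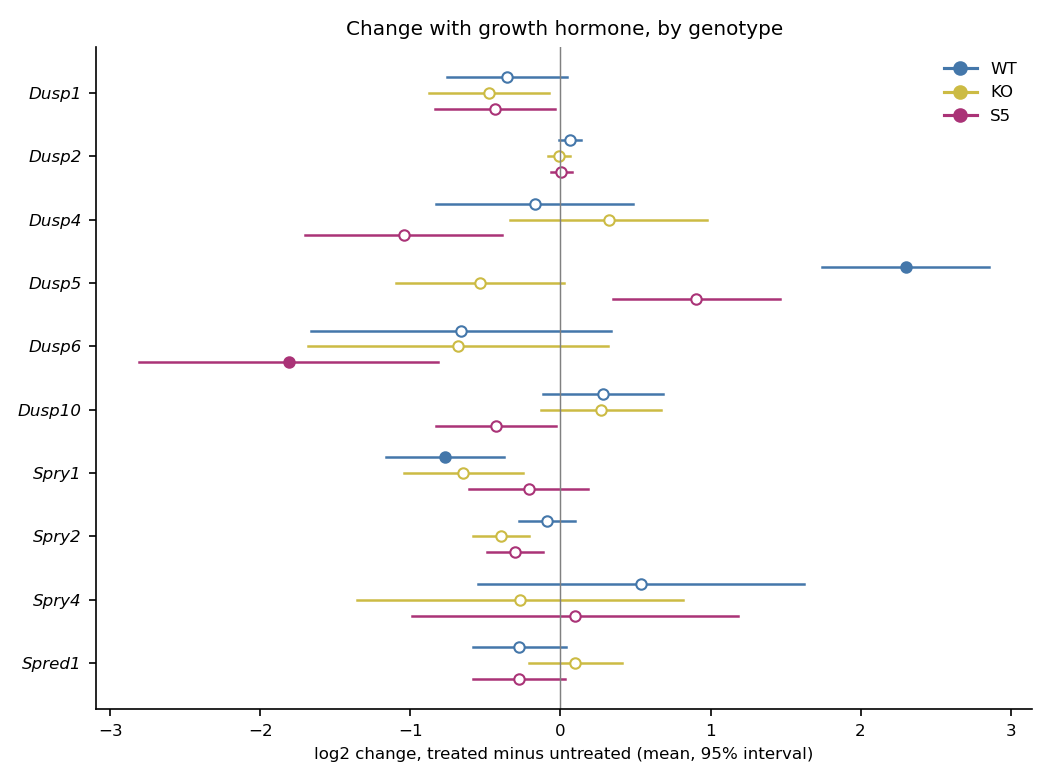
Log2 change with growth hormone (treated minus untreated mean) of each gene in WT, KO and S5 MEFs, with 95 percent intervals from limma's model and filled points past the adjusted threshold of 0.05. Dusp5 in WT lies at 2.30, Spry1 in WT at -0.77 and Dusp6 in S5 at -1.81, and Dusp1, Dusp6, Spry1 and Spry2 lie left of 0 in all 3 genotypes. The S5 values of Spry1 and Dusp4 lie in the low mode, where no change can be read.

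Among the other phosphatases, Dusp1 encodes the broadly acting nuclear enzyme that inactivates p38, JNK and ERK. It stood at 13.82 and 13.39 in WT, at 13.32 and 13.18 in WT_GH, at 13.49 and 13.17 in KO, at 12.72 and 12.98 in KO_GH, at 13.31 and 13.48 in S5 and at 12.97 and 12.94 in S5_GH. The treated arrays were below the untreated ones in every genotype, with changes of -0.36 in WT (adjusted p = 0.311), -0.48 in KO (adjusted p = 0.393) and -0.44 in S5 (adjusted p = 0.196). Dusp10, a phosphatase of JNK and p38, had changes of 0.28 in WT, 0.27 in KO and -0.43 in S5 (adjusted p = 0.416, 0.787 and 0.208). Its second probe set was dim, at 3.98 to 4.67. Dusp4, another nuclear phosphatase of ERK, had changes of -0.17 in WT and 0.32 in KO (adjusted p = 0.741 and 0.931), and in S5 it was in the low mode on all arrays. Its fitted change there, -1.05 (unadjusted p = 0.00691, adjusted p = 0.0713), lies within that mode and is not read as a fold. It passed with array weights (adjusted p = 0.0322), after centring each array on its median (0.0462) and among genes with a mean of at least 4 (0.0359).

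Spry2 stood at 12.04 and 11.89 in WT, 11.93 and 11.82 in WT_GH, 11.34 and 11.46 in S5, and 11.17 and 11.03 in S5_GH, so its range over the arrays was narrow. Its change was -0.09 in WT (adjusted p = 0.544) and -0.30 in S5 (adjusted p = 0.0658), the latter past the threshold with array weights (0.0226) and after centring each array on its median (0.0265). Spry4, a further inhibitor of receptor signalling to RAS, had changes of 0.54 in WT, -0.27 in KO and 0.10 in S5, with SEs of 0.46 (adjusted p = 0.547, 0.938 and 0.982). A second Spry4 probe set with signal went from 4.95 and 5.30 in WT to 6.29 and 6.22 in WT_GH, and from 4.80 and 5.004 in KO to 3.67 and 4.59 in KO_GH. Tested among all probe sets, neither change passed (adjusted p = 0.0823 in WT and 0.441 in KO), nor did the WT response less that of KO (0.125). On that probe set too the treated WT arrays were the highest of all 12. Spred1, a membrane protein that keeps RAF from activation, had changes of -0.27, 0.10 and -0.28 (adjusted p = 0.314, 0.938 and 0.305).

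Averaged over the 3 genotypes, a comparison added after the values had been seen, the hormone effect passed for 5 of the 10 genes, 1 higher and 4 lower, against a background of 14.5 percent (7.10 percent higher and 7.44 percent lower). Dusp5 had a mean change of 0.89 (adjusted p = 0.00719), which joins a rise in WT, a value of -0.53 in KO and 0.91 in S5. The genes that fell were Spry2 by 0.26 (adjusted p = 0.0112), Spry1 by 0.54 (adjusted p = 0.0125), Dusp1 by 0.42 (adjusted p = 0.0305) and Dusp6 by 1.05 (adjusted p = 0.0312). Spry2, Dusp1 and Dusp6 were lower in 3 of 3 genotypes, and Spry1 was lower in WT and KO. The S5 term of Spry1 lies in the low mode, and with these groups set to 4 its mean change was -0.47. Leaving out single arrays gave 3 or 4 genes in place of 5: the call of Dusp1 was lost in 8 of 20 alternatives (adjusted p up to 0.0837, without S5 replicate 2) and that of Dusp6 in 9 of 20 (up to 0.0825, without S5 replicate 2).

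Without hormone, more of the 10 genes passed in the comparisons with S5 than in that of KO with WT. In KO minus WT 1 of the 10 genes passed, against 27.1 percent of all genes (13.9 percent higher and 13.2 percent lower). This was Spry1, which was 2.45-fold lower in KO (log2 difference -1.29, SE 0.17, limma adjusted p = 0.00128). Spry4 (-0.94, SE 0.46, adjusted p = 0.203), Dusp4 (-0.72, SE 0.28, adjusted p = 0.109), Spred1 (-0.35, adjusted p = 0.0955) and Spry2 (-0.23, adjusted p = 0.0694) had lower means in KO that did not pass, and Dusp10 (0.42, adjusted p = 0.122) and Dusp5 (0.35, adjusted p = 0.379) had higher ones. The median difference of the 10 was -0.26, against -0.0035 over all genes.

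In S5 minus KO 6 of the 10 genes were lower and 0 higher, against 27.4 percent of all genes (15.5 percent higher and 11.9 percent lower). The median of the 10 was -0.87, against -0.02 over all genes. In S5 minus WT 7 were lower and 1 higher, against 34.7 percent (19.2 percent higher and 15.4 percent lower), with a median of -0.81 against -0.03. These comparisons share the S5 arrays, so they do not count as separate evidence. They also share the lower mean of the fibroblast markers and the larger Gapdh 3′ to 5′ difference of S5, whose part was not tested. For Actb the ranges of that difference overlapped between the genotypes.

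Dusp4 and Spry1 differed most. Dusp4 stood at 9.60 and 9.22 in WT, at 9.11 and 9.36 in WT_GH, at 8.51 and 8.86 in KO and at 9.26 and 8.76 in KO_GH. In S5 it stood at 2.94 and 3.64, and in S5_GH at 2.35 and 2.14. All 4 arrays of S5 cells were in the low mode and the other 8 were above 8.5, so the S5 groups and the rest were far apart. It was at least 25.8-fold lower in S5 than in KO (adjusted p = 7.69e-06) and at least 42.4-fold lower than in WT (adjusted p = 4.58e-06). Spry1, whose values are given above, was at least 12.2-fold lower in S5 than in KO (adjusted p = 6.36e-07) and at least 29.9-fold lower than in WT (adjusted p = 2.47e-07).

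Spry4 and Dusp6 were lower in S5 with their signal kept above the low mode. Spry4 stood at 8.63 and 8.85 in WT, at 9.52 and 9.02 in WT_GH, at 7.41 and 8.18 in KO, at 7.78 and 7.26 in KO_GH, at 4.60 and 5.19 in S5 and at 5.61 and 4.37 in S5_GH. Every array of S5 cells lay below every other array, with a wide gap between 5.61 and 7.26. The difference was 7.46-fold from KO (log2 -2.90, SE 0.46, adjusted p = 0.00282) and 14.4-fold from WT (log2 -3.84, adjusted p = 0.000559). The second Spry4 probe set with signal stood at 2.08 to 2.45 on the S5 and S5_GH arrays and, tested among all probe sets, was at least 2.19-fold lower in S5 than in WT (adjusted p = 0.000353). Dusp6 was 3.64-fold lower than in KO (-1.86, SE 0.42, adjusted p = 0.0147) and 3.89-fold lower than in WT (-1.96, adjusted p = 0.00931). The Dusp6 calls were lost on leaving out either untreated KO array or S5 replicate 1 (against KO, adjusted p up to 0.0938) and WT replicate 1 or S5 replicate 1 (against WT, up to 0.0629).

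Dusp5 and Spry2 were lower in S5 by smaller steps. Dusp5 was 2.66-fold lower than in KO (-1.41, SE 0.24, adjusted p = 0.00363) and 2.08-fold lower than in WT (-1.06, adjusted p = 0.0109). Its call against KO was lost in a model restricted to the arrays compared (adjusted p = 0.061), and its call against WT without WT replicate 1 (0.0624) or S5 replicate 1 (0.061). Spry2 was 1.25-fold lower than in KO (-0.33, SE 0.08, adjusted p = 0.0197), a call lost without either untreated KO array or S5 replicate 1 (adjusted p up to 0.122), and 1.47-fold lower than in WT (-0.56, adjusted p = 0.00124).

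Spred1 and Dusp10 passed only against WT, and not on all of their probe sets. On the probe set tested Spred1 stood at 11.61 and 11.80 in WT, at 11.26 and 11.45 in KO and at 11.15 and 11.17 in S5, and was 1.46-fold lower in S5 than in WT (-0.54, SE 0.13, adjusted p = 0.015). The call was lost without WT replicate 2 (adjusted p = 0.0917), S5 replicate 1 (0.0712) or S5 replicate 2 (0.0608). Of its 6 probe sets with signal 2 passed, against 28.5 percent of all probe sets tested on their own. The others had differences between -0.25 and 0.24, and averaged over its probe sets the difference was -0.18 (adjusted p = 0.276). Dusp10 stood at 9.58 and 9.09 in WT and at 9.87 and 9.91 in S5 and was 1.47-fold higher in S5 (0.55, SE 0.17, adjusted p = 0.0406). Its second probe set differed by -0.01 (adjusted p = 0.938). That probe set lay close to the low mode, at 3.98 to 4.67 over all arrays, so it gives little reading of a change. The Dusp10 call was lost in 10 of the 21 alternative settings (adjusted p up to 0.198, without WT replicate 2). Without S5 replicate 1 the count of genes that passed in S5 minus WT was 4 in place of 8. Dusp1 and Dusp2 did not pass in any of the comparisons of untreated cells (Dusp1: -0.28, 0.07 and -0.21 for KO minus WT, S5 minus KO and S5 minus WT).

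**Figure D4:**
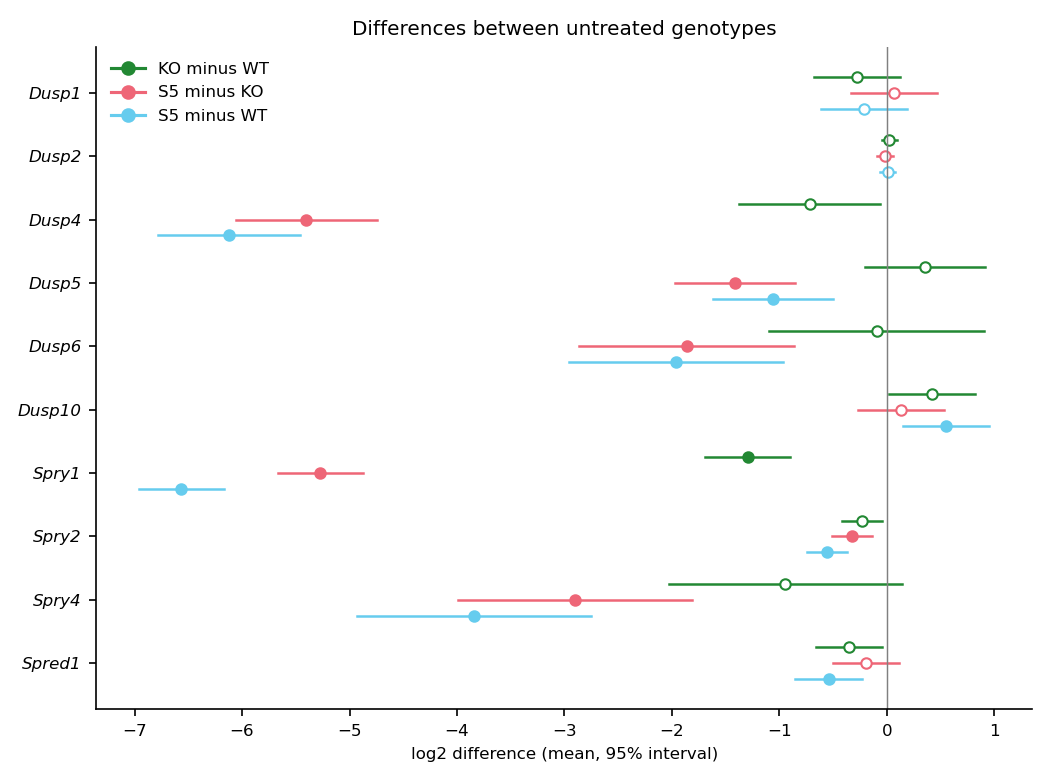
Log2 difference between untreated genotypes for each gene (KO minus WT, S5 minus KO, S5 minus WT), with 95 percent intervals from limma's model and filled points past the adjusted threshold of 0.05. Dusp4 and Spry1 lie between -6.56 and -5.27 in both S5 comparisons, Spry4 at -2.90 and -3.84, and Dusp10 at 0.55 is the gene that is higher in S5 than in WT. Fitted values of Dusp4 and Spry1 involve groups in the low mode.

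The order of the 6 groups was alike for several of these genes. Spry1 ran from WT through WT_GH, KO, KO_GH and S5 to S5_GH, and no neighbours in that order overlapped, although the last pair lies in the low mode. Dusp4 began with WT, WT_GH, KO_GH and KO, each of which overlapped its neighbour, and ended with S5 and S5_GH. Spry4 began with WT_GH and WT, then KO and KO_GH, which overlapped, and ended with S5_GH and S5, which overlapped. Dusp6 ended with S5 and S5_GH, apart from the rest. Over the 12 arrays the levels of Dusp4 and Spry1 had a Pearson correlation of 0.976, Spry1 and Spry4 of 0.947, Dusp4 and Spry4 of 0.935 and Dusp4 and Dusp6 of 0.909. The arrays fall into separate groups, with S5 apart, so these values describe the split of S5 from the other cells and carry no p.

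Genes with the pattern most like the 4 members of the widest range were sought by Pearson correlation over the 12 arrays among 5110 genes. These had a mean over the arrays of at least 4 and group means that differed by a doubling or more. With S5 apart from the other cells, these correlations too mainly describe that split and carry no p. For Dusp4 the most alike genes were AA414768 (0.996), Adam23 (0.994) and Ica1l (0.993). Adam23, a membrane protein of the metalloprotease family, had group means of 12.75 in WT, 12.16 in KO and 5.18 in S5. For Spry1 they were Ldb2 (0.997), Avpr1a (0.996) and Slc2a3 (0.995), and Ldb2, a cofactor of LIM-domain transcription factors, had group means of 9.14 in WT, 8.42 in WT_GH, 7.48 in KO, 6.87 in KO_GH and 2.36 in S5. For Spry4 they were Helz2 (0.980), Snhg4 (0.980) and Ets1 (0.979), the last a transcription factor that ERK phosphorylates. For Dusp6 they were Ermp1 (0.971), Peg3 (0.959) and Pter (0.954).

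The rest of the pathway was taken from gene lists, whose counts are set beside the share of all 18194 genes that passed. That share was 6.00 percent for the hormone in WT, 0.308 percent in KO and 7.88 percent in S5, and without hormone 27.4 percent for S5 minus KO and 34.7 percent for S5 minus WT. Of 16 other dual specificity phosphatase genes, 0 changed with the hormone in KO by limma's adjusted p. There 1 had an unadjusted p under 0.05, beside 1800 of all 18194 genes. In S5 0 rose and 1 fell, and in WT 2 rose and 0 fell. In WT these were Dusp16, a phosphatase of JNK (10.78 and 10.70 before, 11.38 and 11.48 after, log2 change 0.69, adjusted p = 0.0386), and Dusp9 (at least 1.43-fold, adjusted p = 0.0271). In S5 Dusp14 fell by 1.80 (adjusted p = 0.0144). Without hormone, 6 of the 16 were lower and 2 higher in S5 than in KO (11.9 and 15.5 percent of all genes), and 2 lower and 1 higher than in WT (15.4 and 19.2 percent). Dusp22 was lower in S5 in both (-1.67 and -1.64, adjusted p = 0.000118 and 0.000117) and Dusp14 higher (3.64-fold from KO and 2.41-fold from WT, adjusted p = 0.00288 and 0.0134).

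Of 13 other Sprouty and SPRED genes and RAS brakes tested, 1 rose with the hormone in WT and in S5. It was Rasa3, a GTPase-activating protein for RAS (0.32 and 0.52, adjusted p = 0.0423 and 0.00666). Without hormone 2 were lower and 1 higher in S5 than in WT, against 15.4 and 19.2 percent of all genes. Spred2, the relative of Spred1, stood at 10.04 and 9.59 in WT, 9.21 and 9.81 in KO and 8.03 and 7.41 in S5, 4.28-fold lower than in WT (adjusted p = 0.00759) and 3.46-fold lower than in KO (adjusted p = 0.0191). Rasa1, another GTPase-activating protein for RAS, was lower by 0.65 (adjusted p = 0.00637), and Rasa3 was higher by 1.31 (adjusted p = 9.61e-06).

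Upstream, 15 ligand genes that can activate ERK and 14 growth factor receptor genes were tested. With the hormone 4 ligands rose and 1 fell in WT (3.06 and 2.94 percent of all genes), and 3 fell in S5 (4.25 percent). Pdgfb, a ligand of the platelet-derived growth factor receptors, went from 2.47 and 2.63 to 7.08 and 7.57 in WT (at least 10.02-fold, adjusted p = 9.22e-05) and from 4.94 and 5.43 to 4.07 and 3.44 in S5 (log2 change -1.43, adjusted p = 0.0197), where 1 treated array was in the low mode. Fgf7, a fibroblast growth factor for epithelium, rose 2.35-fold in WT (adjusted p = 0.000582) and 1.73-fold in KO (adjusted p = 0.0322), and the EGF-receptor ligand Ereg rose 2.02-fold in WT (adjusted p = 0.00491). Fgf18, another fibroblast growth factor, fell 4.01-fold in WT (adjusted p = 0.0422) and 5.80-fold in S5 (adjusted p = 0.0161). Of the receptors, 1 rose and 1 fell in WT, 1 rose and 0 fell in KO (0.225 and 0.0824 percent of all genes), and 2 rose and 3 fell in S5 (3.63 and 4.25 percent). The median change of the receptors in S5 was -0.15, against -0.02 over all genes. Fgfr1 rose in each genotype (0.35, 0.44 and 0.25 in WT, KO and S5, adjusted p = 0.0129, 0.0337 and 0.0368), and Met fell in WT (-0.41, adjusted p = 0.0238). In S5 without hormone 5 receptors were lower and 6 higher than in WT, against 15.4 and 19.2 percent of all genes, with Egfr 3.97-fold lower (adjusted p = 5.11e-05) and Fgfr3 8.73-fold higher (adjusted p = 0.000121).

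Within the cascade, 16 genes from adaptors to ERK and 19 genes of the JNK and p38 branches were tested. In WT, where 6.00 percent of all genes passed, 1 gene of the ERK cascade fell with the hormone, Braf, a RAF kinase, by 0.51 (adjusted p = 0.0485), and in S5 2 rose and 1 fell, the MEK gene Map2k1 by 0.37 (adjusted p = 0.00804). In the JNK and p38 list 4 rose and 1 fell in WT (3.06 and 2.94 percent of all genes) and 2 rose in S5 (3.63 percent). Map3k8, a kinase that activates MEK downstream of inflammatory receptors, went from 3.51 and 4.84 to 7.07 and 7.07 in WT (log2 change 2.89, adjusted p = 0.00596, with 1 untreated array in the low mode) and from 2.72 and 2.71 to 5.29 and 5.04 in S5 (at least 2.24-fold, adjusted p = 0.0101). Mapkapk3, a kinase downstream of p38, rose by 1.07 in WT (adjusted p = 0.0163) and 1.59 in S5 (adjusted p = 0.00337).

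Of 28 ERK target genes, 0 changed with the hormone in KO by limma's adjusted p. There 9 had an unadjusted p under 0.05, beside 1800 of all 18194 genes. In S5 0 rose and 2 fell (3.63 and 4.25 percent of all genes), and in WT 5 rose and 0 fell (3.06 and 2.94 percent). In WT these were Ier3, an early response gene, from 11.03 and 10.62 to 12.38 and 12.96 (3.59-fold, adjusted p = 0.00634), the small transcription factor gene Maff (3.91-fold, adjusted p = 0.0216), Klf6 (0.31, adjusted p = 0.0364), Phlda1 (1.85-fold, adjusted p = 0.0379) and Fosl1 (5.19-fold, adjusted p = 0.0382). Dusp5 rose and Spry1 fell on the same 4 arrays. These 5 genes were named for having risen there, so a shared direction with Dusp5 is not separate evidence. The median change of the 28 genes in WT was 0.05, against -0.04 over all genes. In S5 without hormone 10 of the 28 were lower and 0 higher than in WT, against the 15.4 percent and 19.2 percent of all genes given above. Against KO 9 were lower and 4 higher in S5, beside 11.9 and 15.5 percent. The ERK targets were also lower in KO than in WT, with 8 lower and 3 higher, against 13.2 and 13.9 percent. Their median difference was -0.26 for KO minus WT, -0.17 for S5 minus WT and -0.22 for S5 minus KO. Etv5, an ETS factor known as an ERK output, stood at 8.33 and 8.43 in WT, 7.19 and 7.08 in KO and 5.94 and 6.08 in S5 (5.15-fold lower than in WT, adjusted p = 0.000555). Fosl1, a FOS family member, stood at 7.45 and 7.22 in WT, 6.15 and 6.58 in KO and 4.14 and 4.19 in S5 (8.99-fold lower than in WT, adjusted p = 0.00205). Plaur, the urokinase receptor gene, was 5.65-fold lower (adjusted p = 0.00113) and Hmga2, a chromatin protein gene, 1.54-fold lower (adjusted p = 0.00115).

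**Figure D5:**
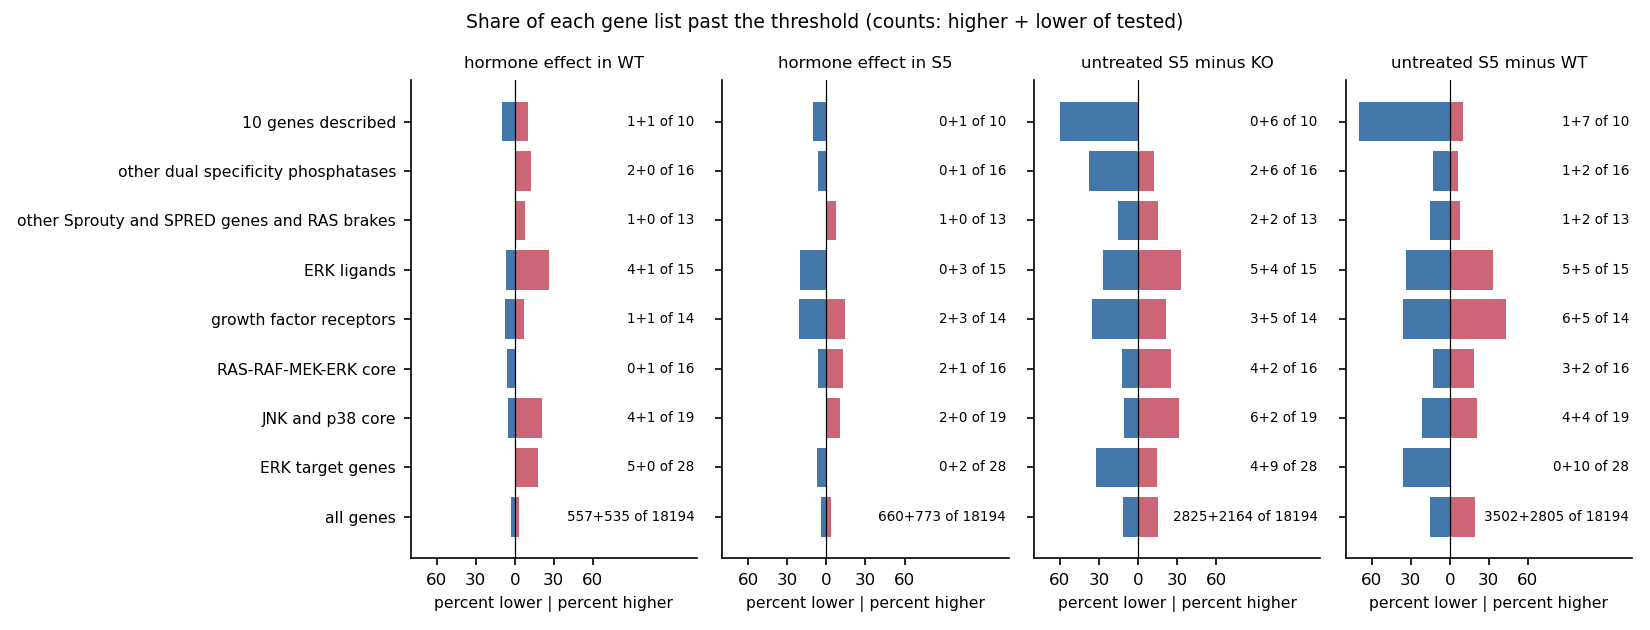
Percent of the genes of each list that were higher (right) or lower (left) past the adjusted threshold of 0.05, for the hormone effect in WT and S5 and for untreated S5 against KO and WT, with counts (higher + lower of tested). The 10 genes have 6 lower in S5 minus KO and 7 lower in S5 minus WT, and the 28 ERK target genes 9 and 10, beside 11.9 and 15.4 percent lower among all genes.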

How the data were processed

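The authors deposited log2 expression values for 12 Affymetrix arrays. GCOS and RMA are named in the submitters' processing notes, with versions and settings not given in the sources used here, and no label states the log base, which was read from the range of 0.99 to 15.95. Probe sets were named through the platform annotation, and 64 control probe sets, 932 with several genes and 9160 with no gene were left out, which left 34945 probe sets of 18194 genes. The probe set with the highest mean represented a gene. limma 3.58.1 (R 4.3.3) fitted a mean for each group (6 residual and 1.2 prior degrees of freedom), and two-sided p-values were adjusted by Benjamini-Hochberg over all genes at 0.05. The bound of the low mode, 4, was chosen after the data were seen.

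The members and lists were chosen with earlier results of these data known. From each list at most 4 genes per comparison, those with the smallest adjusted p past the threshold, may be named; Stat5a and Cish are references. Fosl1 in WT and Dusp14 in S5 minus KO were chosen after their values were seen. Each result was recomputed under 21 alternative settings, or 20 for the mean of 3 genotypes. For Dusp2 these were 20 and 19. In simulated data of 18194 genes, 200 genes with a mean of at least 4 were given a change, and dimmer genes none. For the hormone effect in WT the fit recovered 65 percent of changes of log2 1 and 96 percent of log2 2. It recovered 50 and 89 percent for the hormone effect in S5, and 41 and 75 percent for the response of WT minus KO. Of the genes called, 2.42, 5.44 and 8.66 percent, in the same order, were genes given no change.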

Additional observations from a re-analysis of the deposited data

Results flagged for a closer look

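Dusp5 differed between genotypes in its response to growth hormone. The WT response minus the KO response was 2.83 on the log2 scale (limma adjusted p = 0.0104, and 0.0708 in a model restricted to the arrays compared). Both WT_GH arrays were above both WT arrays. The change in KO was -0.53 (limma adjusted p = 0.541), and the nearest treated and untreated KO arrays stood at 5.89 and 5.90. The macrophage markers differ between the same genotypes, and their part was not tested.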

How the results depend on the processing

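Each comparison was recomputed under 9 other settings (8 for the mean of 3 genotypes) and without each of the 12 arrays in turn. Of 2080 values of single genes, 1993 stayed on their side of the threshold, 67 lost the call and 20 gained it. The sign changed for 57 values, 0 of which had passed as reported or passed in the alternative. In WT the count of genes past the threshold was 3 in place of 2 after quantile normalization, where Dusp2 passed (adjusted p = 0.0423), and 1 with every probe set on its own, only the groups compared, a trended prior, array weights or the replicate block. In S5 it was 0 in place of 1 with every probe set on its own, quantile normalization or the replicate block, 2 with only the groups compared, 3 with genes of a mean of at least 4 or arrays centred on their median, and 4 with array weights. The response of WT minus KO had 0 in place of 1 with only the groups compared, and S5 minus WT had 1 in place of 0 there and with array weights. Untreated KO minus WT had 2 in place of 1 after quantile normalization. Leaving out 1 array gave 1 to 2 in WT, 0 to 1 in S5, 0 to 1 for the responses of S5 minus KO and S5 minus WT, 3 to 4 for the mean of 3 genotypes, 1 to 2 for untreated KO minus WT, 4 to 6 for untreated S5 minus KO and 4 to 8 for untreated S5 minus WT. The causes were not tested. The main fit did not pair samples by the numbers in the labels. Deviations of same-numbered arrays correlated between -0.36 and 0.20 over 15 pairs of groups, 1 of them over 0.1. These values cannot show whether the samples were paired.

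Over all genes, fits of only the groups compared called 266 genes in place of 1092 in WT, 0 in place of 56 in KO and 532 in place of 1433 in S5. Array weights called 2914 in S5. With arrays centred on their median, 32.2 percent of the S5 calls were higher, against 46.1 percent as deposited, with a median change of -0.11 over all genes, and 38.03 against 48.8 percent for the mean of 3 genotypes. With 2 arrays a group, small changes of single genes are at the limit of what these data can show, and changes within the low mode were not read as folds.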
